A study of Homo sapiens with 40 samples.

Results

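The genes described here are 46 members of the response to interferon and to double-stranded RNA, followed from day 0 to day 7 in human embryonic stem cells after loss of a pluripotency factor. Members were found by gene symbol, current or older, in the platform annotation of the arrays. A probe was named for 45 of them, and 40 were tested among 13461 genes. The other 6 were IFIH1, OAS2, OASL and IFIT5, whose probes stayed near background, STAT2, with no probe named here, and HLA-B, whose only probe was left out of the tests. Expression was measured on Illumina bead arrays in 5 arms of 8 arrays each, with 1 array per day. H1 cells received lentivirus with a short hairpin RNA (shRNA) against OCT4, NANOG or SOX2, H9 cells received the OCT4 shRNA, and H1 cells with control virus served as controls. H1 and H9 are established embryonic stem cell lines, grown here on Matrigel in mTeSR medium and transduced with polybrene.

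An shRNA is a hairpin transcribed from the virus and cut by the cell into a small RNA that destroys the matching messenger RNA. The labels call the control virus H1P, and whether it carries a hairpin is not given in the sources used here. All arms shared lentivirus and polybrene, no arm was left without virus, and the H9 line had no control arm. Each arm is 1 time course of a single line, so days of a window stand in for replicates, and a p-value reflects only how much those days differ among themselves, which may be technical. Windows were days 0 and 1, days 2 and 3, and days 4 to 7, written as early, middle and late. The NANOG shRNA array of day 7 was left out for its other scale, so that 39 of 40 arrays were used and the late NANOG shRNA window had n = 3. The H9 columns were moved by 2 rows where their values sat early, and 30 probes around that break were left out in every arm.

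Cells detect double-stranded RNA, a by-product of viral replication, with helicases of the RIG-I family. Through adaptors and kinases these activate IRF transcription factors, which switch on interferon genes. Secreted interferon then acts through its receptors, JAK kinases and STAT proteins with IRF9 on a DNA element called ISRE, upstream of many induced genes. Their products bind viral RNA, block entry or budding of virus, or load peptides onto MHC class I. Embryonic stem cells are known for a weak interferon response and for expressing some of these effectors, such as the IFITM proteins, without any interferon.

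The shared element shows which members carry the same short code upstream of their start. The core searched was GAAANNGAAA on either strand (TTTCNNTTTC on the opposite one), in windows from 250 bases before to 50 bases after each RefSeq start site (GRCh38.p14). It was present in 3.57% of 35116 windows of all genes. Of the members, 35 had a window, and 21 of these held a match (60%). Repeats of GAAA with 1 base between them, as in the windows of DDX58 and OAS1, did not count as a match. A second element, GAS, was searched as TTCNNNGAA and was present in 7.66% of all windows, against 10 of the 35 members (28.6%). For both elements the shares over all genes count windows. The member shares count genes with a match in any of their windows, 48 in all, so the units differ and the member shares are favoured. Of 6 member windows with both elements, the matches overlapped in 5, and in 5 of 48 windows ISRE core matches overlapped each other. The windows below show members on which the results turn, from 180 bases before the start to 10 bases from it, 5′ to 3′ on the strand of the gene, with ISRE core matches in capitals. IFIT1 was the member furthest above control after SOX2 shRNA, ISG15, IFITM1, IFI6 and BST2 were lower late with OCT4 shRNA in H1 than with control virus, and EIF2AK2 is a double-stranded RNA sensor that passed no late test against control.
IFIT1, chr10:89392443-89392632, plus strand: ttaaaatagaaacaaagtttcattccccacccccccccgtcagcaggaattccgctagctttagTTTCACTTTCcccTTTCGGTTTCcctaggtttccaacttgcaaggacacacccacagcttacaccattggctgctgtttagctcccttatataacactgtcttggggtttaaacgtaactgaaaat
ISG15, chr1:1013317-1013506, plus strand: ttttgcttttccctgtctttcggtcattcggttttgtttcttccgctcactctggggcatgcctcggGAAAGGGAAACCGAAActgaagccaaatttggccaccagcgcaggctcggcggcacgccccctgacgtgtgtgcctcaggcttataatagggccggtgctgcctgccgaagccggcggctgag
IFITM1, chr11:313860-314049, plus strand: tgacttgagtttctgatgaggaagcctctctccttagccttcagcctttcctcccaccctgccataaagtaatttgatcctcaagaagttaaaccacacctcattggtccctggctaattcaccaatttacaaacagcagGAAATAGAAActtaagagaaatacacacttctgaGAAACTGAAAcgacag
IFI6, chr1:27672183-27672372, minus strand: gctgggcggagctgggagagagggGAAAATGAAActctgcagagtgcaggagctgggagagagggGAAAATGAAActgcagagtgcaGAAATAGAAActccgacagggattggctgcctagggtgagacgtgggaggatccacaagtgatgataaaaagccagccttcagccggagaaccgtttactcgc
BST2, chr19:17405621-17405810, minus strand: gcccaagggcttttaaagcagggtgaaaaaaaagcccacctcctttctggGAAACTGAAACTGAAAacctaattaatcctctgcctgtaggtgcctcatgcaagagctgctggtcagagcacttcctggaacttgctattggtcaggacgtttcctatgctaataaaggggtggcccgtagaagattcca
EIF2AK2, chr2:37156971-37157160, minus strand: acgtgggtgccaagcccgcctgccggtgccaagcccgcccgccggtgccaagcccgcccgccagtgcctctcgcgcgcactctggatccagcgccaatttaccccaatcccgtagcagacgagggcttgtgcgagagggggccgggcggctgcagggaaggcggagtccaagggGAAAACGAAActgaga

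In these windows the IFIT1 matches lay 116 and 103 bases upstream on the opposite strand, and those of ISG15 overlapped in a single run that began 113 bases upstream. BST2 had a similar run from 130 bases upstream, IFI6 had 3 matches between 156 and 93 bases upstream, and IFITM1 had matches 40 and 6 bases upstream. EIF2AK2 held 1 match, 6 bases upstream. Among members with a window, the core was present in 5 of 5 that were called higher, 1 of 1 lower and 13 of 25 not called after SOX2 shRNA. After OCT4 shRNA it was present in 1 of 2 higher, 10 of 14 lower and 8 of 15 not called, and after NANOG shRNA in 2 of 2 higher, 5 of 7 lower and 12 of 22 not called. A match is a stretch of letters, and binding was not measured.

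Levels are log2 intensities corrected for background, and 6.58 is the background level. The authors' values were already on a common scale, with column medians between 135.6 and 135.7 intensity units, and 40.9% to 41.0% of probes lay above the level on each array. The targeted genes were lower in their own arms late in the week, with log2 differences from control of -5.91 for POU5F1 (the gene of OCT4), -2.11 for NANOG and -1.99 for SOX2. In H9 cells with OCT4 shRNA, POU5F1 averaged 9.33 late and 11.69 early. In H1 cells with OCT4 shRNA it averaged 6.79 late, close to background. Of 8 embryonic stem cell markers, 7 were above background on at least 1 late array in every arm.

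The late comparisons of the 3 knockdowns share the same 4 control arrays, and their values are given side by side. After SOX2 shRNA, 6 of 40 tested members were called higher and 1 lower, where 3.55% of all genes tested were called higher and 4.7% lower. After OCT4 shRNA in H1, 2 were called higher and 18 lower, against 23.8% and 24.3% of all genes. After NANOG shRNA, 2 were called higher and 8 lower, against 7.84% and 7.54%. Calls are Benjamini-Hochberg adjusted p under 0.05 in limma over all 13461 genes. A gene was tested when a probe was above background on at least 4 arrays, whichever their arm. IFIT2, IFIT3 and IFI44 met this rule only through SOX2 shRNA arrays, and IFI44 was above background in no other arm. They were therefore tested only because they were high in that arm, and the counts of members higher with SOX2 shRNA favour them. How many of all genes called higher entered in this way was not counted. The median difference over the 40 members was 0.01 after SOX2 shRNA, -0.19 after OCT4 shRNA and -0.01 after NANOG shRNA. With members below background set at their bound these medians were 0.00, -0.08 and 0.00, and the median over all genes was 0.00 in each.

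**Figure D1:**
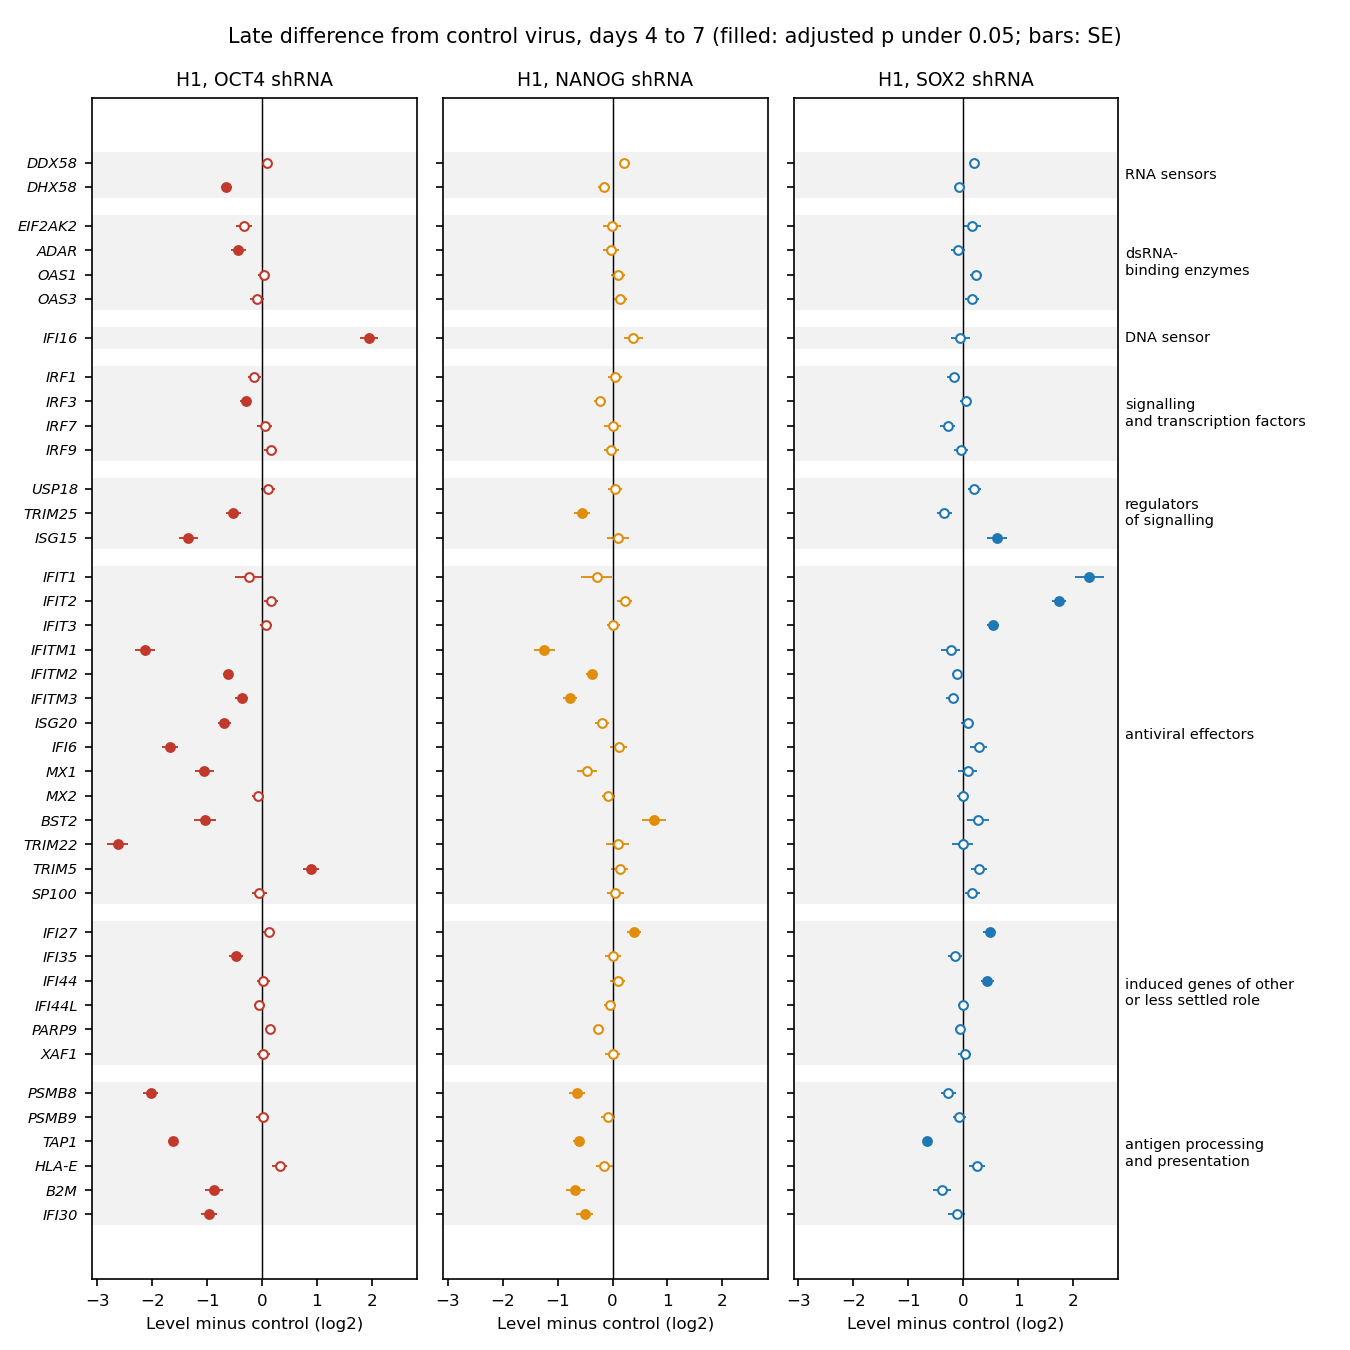
Difference of each of the 40 tested members from control virus over days 4 to 7 (log2, horizontal axis), by role, for H1 cells with OCT4, NANOG and SOX2 shRNA. Filled points passed the test and bars are standard errors. Members lie mostly left of 0 among effectors and antigen processing after OCT4 shRNA, with IFITM1 at -2.13, while IFIT1, IFIT2 and IFIT3 lie right of 0 after SOX2 shRNA, IFIT1 at 2.30. Points of members below background in a group, such as TRIM22, PSMB8 and IFIT2, are fitted values whose size the background level limits.

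With SOX2 shRNA IFIT1 and IFIT2 were high from day 0 and IFIT3 was slightly above background late. The IFIT proteins bind viral RNA that lacks the methylated cap of host messengers. IFIT1 was at 8.07, 8.91, 9.27, 9.68, 10.03, 9.79, 9.81 and 9.56 from day 0 to day 7 with SOX2 shRNA, against 7.23, 7.07, 7.27, 7.27, 7.56, 7.44, 7.47 and 7.52 with control virus. Every SOX2 shRNA array, day 0 included, was above every control array, and the level stayed near 10 from day 4. Late IFIT1 averaged 9.80 ± 0.19 with SOX2 shRNA and 7.50 ± 0.06 with control virus (SD, n = 4 each), a log2 difference of 2.30 (SE 0.26, adjusted p = 2.95e-07 in limma). A second passing probe for IFIT1, above background on 5 of 39 arrays, gave 0.33 (adjusted p = 0.0942 over all probes in limma).

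IFIT2 was at 6.88, 7.33, 7.66, 7.99, 7.70, 8.14, 7.90 and 7.89 from day 0 to day 7 with SOX2 shRNA, and between 6.10 and 6.53 with control virus, below background on all 8 days. The arms did not overlap on any day. Late IFIT2 was at least 2.52-fold higher with SOX2 shRNA than with control virus (fitted log2 difference 1.74, adjusted p = 3.35e-11 in limma). IFIT3 was above background on every SOX2 shRNA array from day 1 on, at 6.69 to 7.12 from day 2, and at 6.24 to 6.57 late with control virus. It was at least 1.24-fold higher late (adjusted p = 0.00144 in limma), and the call was lost when the day 5 arrays of all arms were left out (adjusted p = 0.0551). Other IFIT3 probes did not pass the filter, with highest values of 6.43 and 6.48 over all arrays, so the call rests on a single probe. IFIT5, the remaining family member listed, did not pass the filter.

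ISG15, a ubiquitin-like protein that is joined to other proteins during the response, was at 9.57, 10.06, 10.50, 10.58, 10.95, 10.78, 10.54 and 10.89 from day 0 to day 7 with SOX2 shRNA. With control virus it was at 9.28, 9.60, 9.94, 9.86, 10.11, 10.40, 9.67 and 10.51. The late ranges touched without overlapping, since the lowest SOX2 shRNA value was 10.54 and the highest control value 10.51. The late difference was 0.62 (SE 0.18, adjusted p = 0.0311 in limma), and it missed the threshold under 11 of 35 alternatives, with adjusted p up to 0.147. IFI27 and IFI44, induced genes of less settled role, were at least 1.1-fold and at least 1.09-fold higher late with SOX2 shRNA than with control virus, where both were below background (adjusted p = 0.00443 and 0.0177 in limma). IFI27 lost its call without the day 5 arrays (adjusted p = 0.0503), and IFI44 lost it without the arrays of day 4 or day 7, without control day 4 alone or without SOX2 shRNA day 7 alone (adjusted p up to 0.164).

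The member called lower after SOX2 shRNA on its representing probe was TAP1, a subunit of the transporter that carries peptides to MHC class I. TAP1 was at 8.27, 8.13, 8.14, 8.15, 8.17, 7.99, 7.92 and 7.99 from day 0 to day 7 with SOX2 shRNA, against 8.37, 8.53, 8.81, 8.61, 8.70, 8.71, 8.67 and 8.61 with control virus. All knockdown arms were already below the control range of 8.37 to 8.81 on day 0, with 8.18 for OCT4 shRNA, 8.16 for NANOG shRNA and 8.27 for SOX2 shRNA. The late difference was -0.65 after SOX2 shRNA (SE 0.09, adjusted p = 9.66e-06 in limma). B2M, the light chain of MHC class I, differed by -0.38 on its representing probe (adjusted p = 0.155) and was called lower on its second probe, by -0.51 (adjusted p = 0.0083, both over all probes in limma).

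On days 2 and 3, 4 members were called after SOX2 shRNA, where 0.416% of all genes were: IFIT1 was higher by 2.20, IFIT2 was at least 2.38-fold higher, and PARP9 and TAP1 were lower by -0.61 and -0.56. PARP9 was at 6.53, below background, and 6.72 on these days with SOX2 shRNA. Late it averaged 7.05 with SOX2 shRNA and 7.10 with control virus and was not called. On days 0 and 1 no member was called in limma (5 had an unadjusted p under 0.05), where 0 of 13461 genes were called, though IFIT1 was at 8.07 and 8.91 and IFIT2 at 6.88 and 7.33. Within the SOX2 shRNA arm, 6 members rose between the early and the late window, where 7.03% of all genes changed: IFIT1 by 1.31, ISG15 by 0.98, IFIT2 by 0.80, IFITM1 by 0.74, IFI6 by 0.61 and IFITM3 by 0.52. None of the 6 remained called without the day 0 arrays. When that change was set against the change in control cells, 0 of 40 members were called in limma (7 with an unadjusted p under 0.05), where 0.0297% of all genes were.

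**Figure D2:**
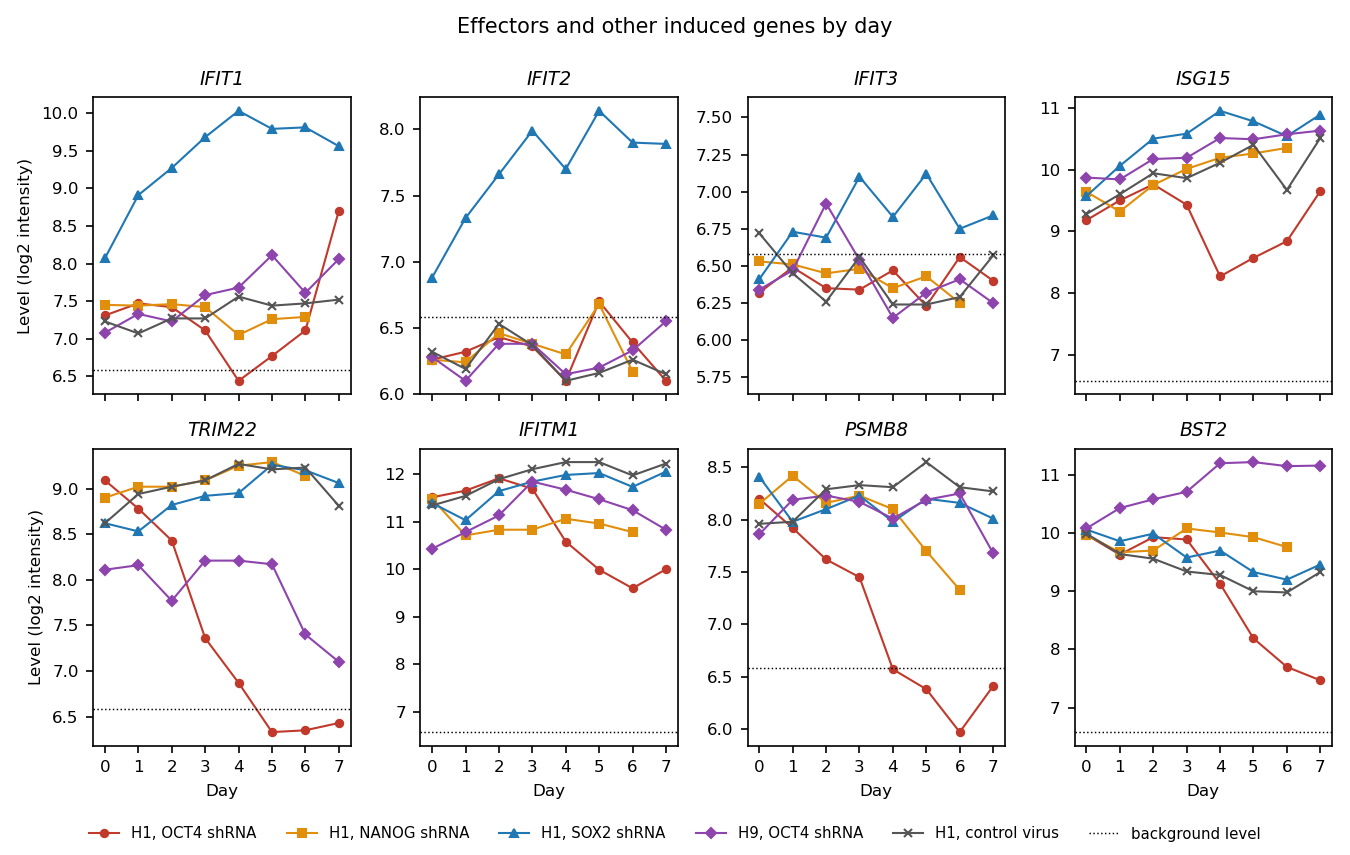
Level (log2 intensity, vertical axis) by day (horizontal axis) of 8 members in the 5 arms, with the background level of 6.58 as a dotted line and 1 array per point. IFIT1 and IFIT2 stand above all other arms from day 0 with SOX2 shRNA, reaching 10.03 and 8.14, and TRIM22, IFITM1, PSMB8 and BST2 are lowest on the late days in H1 cells with OCT4 shRNA.

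None of the 7 tested sensors and double-stranded RNA-binding enzymes, the DNA sensor IFI16 among them, was called after SOX2 shRNA in limma (1 had an unadjusted p under 0.05), with differences between -0.09 and 0.23. DDX58, the gene of RIG-I, which detects RNA ends made by viruses, was at 6.91, 6.68, 6.64, 6.63, 6.68, 6.77, 6.67 and 6.50 from day 0 to day 7 with SOX2 shRNA, against 6.75, 6.32, 6.54, 6.46, 6.25, 6.46, 6.56 and 6.57 with control virus. These values straddle the background level, so small differences of DDX58 could not be resolved. IFIH1, the gene of MDA5, which detects long double-stranded RNA, ranged from 5.82 to 6.69 and was above background on 2 of 39 arrays. EIF2AK2, the gene of the kinase PKR, which halts translation when it binds double-stranded RNA, was well expressed, at 9.61, 9.98, 10.15 and 9.85 late with SOX2 shRNA and 9.72, 9.55, 9.49 and 10.13 late with control virus. These ranges overlapped, and the difference was 0.17 (SE 0.15, adjusted p = 0.574 in limma).

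DHX58, the helicase LGP2 that modulates the other sensors, averaged 6.58 late with SOX2 shRNA and 6.65 with control virus. ADAR, which edits adenosine to inosine in double-stranded RNA, averaged 11.60 ± 0.16 with SOX2 shRNA and 11.69 ± 0.09 with control virus (SD, n = 4 each). OAS1 and OAS3, enzymes that make the oligoadenylates that activate RNase L, differed by 0.23 (adjusted p = 0.244) and 0.16 (adjusted p = 0.48 in limma). Of the transcription factors, IRF1, IRF3, IRF7 and IRF9 differed by -0.17, 0.05, -0.28 and -0.04 after SOX2 shRNA, with adjusted p between 0.256 and 0.909. Not one of the 9 listed interferon genes passed the filter, and the absence of a call for sensors near background does not show that they did not change.

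**Figure D3:**
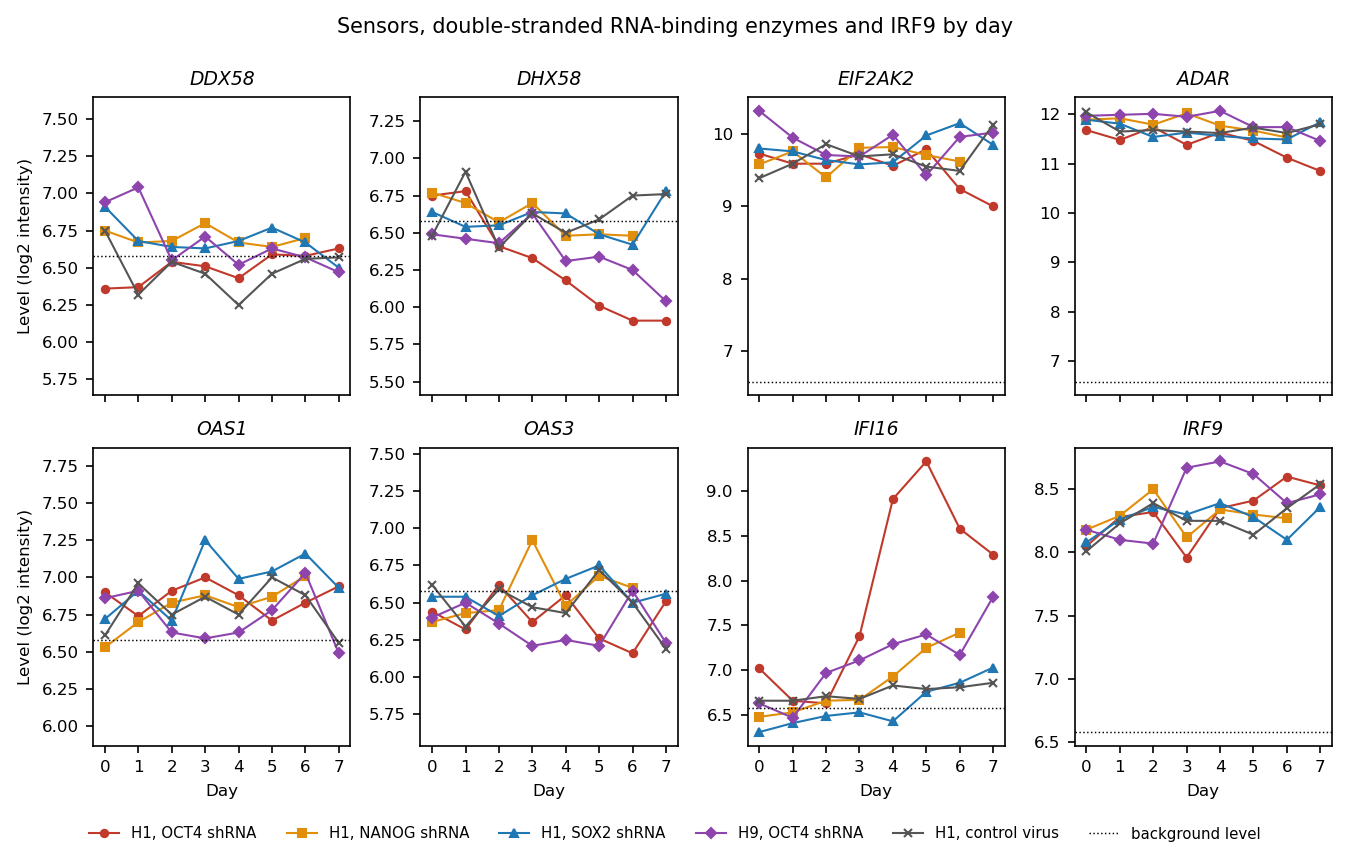
Level (log2 intensity, vertical axis) by day (horizontal axis) of 6 sensors and double-stranded RNA-binding enzymes, IFI16 and IRF9 in the 5 arms, with the background level of 6.58 dotted. IFI16 reaches 9.33 in H1 cells with OCT4 shRNA on day 5, and DHX58 is at 5.91 there on days 6 and 7.

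In H1 cells with OCT4 shRNA most called members were lower than with control virus, and the largest differences were among antiviral effectors and antigen processing. By role, 8 of 14 tested effectors were lower and 1 was higher, 4 of 6 antigen processing genes were lower, and 2 of 3 regulators of signalling were lower, where 24.3% of all genes were lower and 23.8% higher. In bulk RNA, fewer cells of a type and less RNA per cell cannot be told apart. TRIM22, a restriction factor against retroviruses, was at 9.09, 8.78, 8.43, 7.36, 6.87, 6.33, 6.35 and 6.43 from day 0 to day 7 with OCT4 shRNA, against 8.62, 8.94, 9.02, 9.09, 9.27, 9.21, 9.23 and 8.81 with control virus. It was below every control array from day 2 and at background from day 5. The fitted late difference was -2.63 (SE 0.19, adjusted p = 6.3e-13 in limma), where 1 of 4 late OCT4 shRNA arrays was above background, so its size is limited by the background level.

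IFITM1, a membrane protein that blocks the fusion of virus with the cell, was at 11.51, 11.65, 11.91, 11.69, 10.58, 9.99 and 9.60 with OCT4 shRNA from day 0 to day 6, against 11.34, 11.54, 11.89, 12.10, 12.25, 12.25, 11.97 and 12.22 from day 0 to day 7 with control virus. The OCT4 shRNA values lay within the control range up to day 3 and below it from day 4, day 7 included. The late difference was -2.13 (SE 0.18, adjusted p = 1.65e-11 in limma). Its relatives IFITM2 and IFITM3 were lower by -0.62 and -0.37 (adjusted p = 1.44e-06 and 0.00923 in limma), and the IFITM3 call was lost without the day 5 arrays (adjusted p = 0.126).

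PSMB8, a catalytic subunit of the immunoproteasome, was at 8.20, 7.92, 7.62, 7.45, 6.57, 6.38, 5.97 and 6.41 with OCT4 shRNA from day 0 to day 7, against 7.96, 7.98, 8.29, 8.33, 8.31, 8.55, 8.31 and 8.27 with control virus. It was below background on every late OCT4 shRNA array, which makes it at least 3.45-fold lower than with control virus (adjusted p = 1.85e-13 in limma). All 3 further passing probes for PSMB8 were also called lower, by -0.34 to -1.48. PSMB9, its partner subunit, differed by 0.01 on the probe that represents it (adjusted p = 0.97) and by -0.68 on its other passing probe (adjusted p = 3.97e-07 over all probes in limma), so its probes disagree.

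IFI16, a nuclear sensor of DNA, was higher, and was at 7.02, 6.66, 6.63, 7.38, 8.91, 9.33, 8.58 and 8.29 with OCT4 shRNA from day 0 to day 7. With control virus it stayed between 6.66 and 6.86. It was above every control array from day 3 and peaked on day 5, and its late difference was 1.95 (SE 0.17, adjusted p = 2.15e-11 in limma). The other member called higher was TRIM5, which binds the capsid of retroviruses, at 0.89 (SE 0.15, adjusted p = 6.01e-06 in limma) on the probe that represents it. Its further passing probes gave 0.51 (adjusted p = 0.00194) and 0.15 (adjusted p = 0.29 over all probes in limma), so the size differs between probes. TRIM5 averaged 8.54 late and 8.63 early with OCT4 shRNA, while it averaged 7.65 late and 8.15 early with control virus, so its change over the week in the OCT4 shRNA arm was not called.

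The remaining members called lower than control after OCT4 shRNA covered several functions. For ISG15, B2M, ADAR, IRF3 and IFITM3 the change over the week within the OCT4 shRNA arm was not called. IFI6, an interferon-induced membrane protein, was lower by -1.68 on its brighter probe, and its other passing probe differed by -0.01 (adjusted p = 0.955 over all probes in limma). TAP1 was lower by -1.63 (adjusted p = 1.54e-15 in limma), and ISG15 by -1.34 (adjusted p = 3.45e-07 in limma). ISG15 was at 8.27 on day 4 and back at 9.65 on day 7 with OCT4 shRNA, against 10.11 and 10.51 with control virus. Its window means were 8.83 late and 9.34 early with OCT4 shRNA, and 10.17 late and 9.44 early with control virus. MX1, a GTPase that traps viral capsids, was at least 1.89-fold lower late with OCT4 shRNA than with control virus (adjusted p = 4.11e-06 in limma). BST2, which tethers budding virus to the cell, was at 9.13, 8.19, 7.70 and 7.47 late with OCT4 shRNA, against 9.28, 9.0, 8.98 and 9.33 with control virus. Only the day 4 value lay inside the control range, and the difference was -1.03 (adjusted p = 7.09e-05 in limma). The other called members were IFI30, B2M, ISG20, DHX58, TRIM25, IFI35, ADAR and IRF3. Without the day 7 array of the OCT4 shRNA arm ADAR lost its call (adjusted p up to 0.108), without the arrays of day 5 or day 6 IFI35 did (up to 0.0668), and IRF3 did under 4 alternatives, such as without the day 4 arrays (up to 0.0758).

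Of the sensors, 1 of 2 tested RNA sensors and 1 of 4 tested enzymes were called lower in this arm, where 24.3% of all genes were. DDX58 was at 6.43, 6.59, 6.58 and 6.63 late with OCT4 shRNA and 6.25, 6.46, 6.56 and 6.57 with control virus, a difference of 0.10 (adjusted p = 0.398 in limma). EIF2AK2 was at 9.56, 9.79, 9.24 and 9.0 late with OCT4 shRNA and 9.72, 9.55, 9.49 and 10.13 with control virus, a difference of -0.33 (adjusted p = 0.0763 in limma) that passed when the day 5 arrays were left out (-0.52, adjusted p = 0.0102), and likewise without OCT4 shRNA day 5 or control day 6 alone. DHX58 was at 6.18, 6.01, 5.91 and 5.91 late with OCT4 shRNA, all below background, and at least 1.05-fold lower than with control virus (adjusted p = 2.04e-06 in limma). ADAR was lower by -0.43 (adjusted p = 0.00757) and by -0.55 on its other passing probe, and its day 7 level of 10.85 was the lowest of the arm. OAS1 and OAS3 differed by 0.04 and -0.09 and were not called. Of the transcription factors only IRF3 was called (-0.30, adjusted p = 0.0171 in limma), while IRF1, IRF7 and IRF9 differed by -0.14, 0.05 and 0.16.

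The order in time within the OCT4 shRNA arm was read as the first day from which a member stayed outside the range of the 8 control arrays. That day depends on the width of the control range, 7.75 to 7.85 for ISG20 but 9.28 to 10.51 for ISG15, so it does not date a fall. TAP1, below its control range from day 0 in every knockdown arm, was at 8.01 to 8.33 up to day 3 with OCT4 shRNA and at 7.00 on day 4. Of the 18 members called lower, TAP1 was outside from day 0, PSMB8 from day 1, TRIM22 and ISG20 from day 2, and DHX58, IFITM2, IFI6, MX1 and IFI30 from day 3. IFITM1 followed on day 4, ADAR, TRIM25, BST2 and IFI35 on day 5 and B2M on day 7, while ISG15 and IRF3 were below the control range on earlier late days and inside it on day 7. Some had left the range before and come back. B2M was at 9.56 on day 5, below its lowest control value of 10.11, and at 10.17 on day 6. ADAR was at 11.48 and 11.38 on days 1 and 3 (lowest control value 11.62), and IFI35 at 6.68 and 6.63 on days 1 and 2 (lowest control value 6.71). IFITM3 was inside the control range of 11.83 to 12.82 on every late day, so its call rests on the late window means. The middle window had 3 calls, TRIM22 (-1.16), PSMB8 (-0.78) and TAP1 (-0.54), where 5.25% of all genes were called. The early window had 0 in limma (4 with an unadjusted p under 0.05), where 0.0149% of all genes were called. Over the week within the arm, 14 members fell and 2 rose, where 20.3% of all genes fell and 21.7% rose. Set against the change in control cells, 13 changes were lower and 1 higher, where 23.8% of all genes changed.

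IFIT1 in the OCT4 shRNA arm was at 6.44, 6.77, 7.11 and 8.70 on days 4 to 7, against 7.56, 7.44, 7.47 and 7.52 with control virus. It was therefore below the control values on days 4 to 6 and above them on day 7, and the window mean differed by -0.24 (adjusted p = 0.466 in limma). IFIT2 and IFIT3 stayed near background in this arm. HLA-B, an MHC class I heavy chain, could be followed in H1 only and without a test. It was at 8.06, 8.51, 9.11 and 9.15 on days 4 to 7 with OCT4 shRNA, at 8.57, 8.24 and 8.11 on days 4 to 6 with NANOG shRNA and between 8.64 and 8.71 late with SOX2 shRNA, against 9.09, 9.41, 9.25 and 9.08 with control virus.

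After NANOG shRNA the 8 members called lower were 3 of 14 tested effectors, 4 of 6 antigen processing genes and 1 of 3 regulators, where 7.54% of all genes were lower. IFITM1 was at 11.48, 10.71, 10.83, 10.83, 11.06, 10.96 and 10.78 from day 0 to day 6 with NANOG shRNA, below the whole control range of 11.34 to 12.25 from day 1. The late difference was -1.24 (SE 0.19, adjusted p = 2.2e-05 in limma). IFITM3 was at 12.07, 11.71, 11.63, 11.95, 11.83, 11.76 and 11.90 with NANOG shRNA, against 11.83, 12.23, 12.45, 12.64, 12.52, 12.82, 12.50 and 12.61 from day 0 to day 7 with control virus. Its late difference was -0.78 (SE 0.13, adjusted p = 3.34e-05 in limma), and the late arrays did not overlap. IFITM3 averaged 11.83 late and 11.89 early with NANOG shRNA, while it averaged 12.61 late and 12.03 early with control virus. IFITM2 was lower by -0.38 (adjusted p = 0.00869 in limma).

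B2M was at 10.44, 10.56, 10.57, 10.33, 10.44 and 10.30 from day 0 to day 5 with NANOG shRNA, against 10.11, 10.56, 11.04, 11.09, 10.93, 10.76, 11.16 and 10.83 from day 0 to day 7 with control virus. The late difference was -0.68 (SE 0.17, adjusted p = 0.00567 in limma), and a second probe gave -0.92. The B2M call was lost without the day 6 arrays of all arms and without NANOG shRNA day 6 alone (adjusted p up to 0.19 in limma). The late NANOG shRNA values lay below the late control values, and the control values were themselves higher from day 2 than on days 0 and 1. PSMB8, TAP1, TRIM25 and IFI30 were lower by -0.65, -0.62, -0.56 and -0.51, and 2 of the 3 further PSMB8 probes were called. BST2 was higher by 0.75 (SE 0.22, adjusted p = 0.0147 in limma), at 9.97, 9.67, 9.70, 10.08, 10.01, 9.93 and 9.76 from day 0 to day 6 with NANOG shRNA, against 9.99, 9.64, 9.56, 9.34, 9.28, 9.0, 8.98 and 9.33 from day 0 to day 7 with control virus. NANOG shRNA values spanned 9.67 to 10.08, while the control values were lower late than early. The call was lost without the arrays of day 5 or day 6 and without NANOG shRNA day 4 or day 5 alone (adjusted p up to 0.156). IFI27 was at least 1.04-fold higher (adjusted p = 0.0203 in limma).

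Without the day 6 array of the NANOG shRNA arm, and without the arrays of day 5 or day 6 in all arms, 5 members were called after NANOG shRNA, and 3 of the 10 calls (IFITM1, IFITM3 and TAP1) held under every alternative run. No tested sensor, double-stranded RNA-binding enzyme or IRF factor was called after NANOG shRNA in limma (3 had an unadjusted p under 0.05). DDX58 was at 6.67, 6.64 and 6.70 late with NANOG shRNA, against 6.25, 6.46, 6.56 and 6.57 with control virus, a difference of 0.21 (adjusted p = 0.152 in limma). EIF2AK2 was at 9.82, 9.71 and 9.62, a difference of -0.01. DHX58, ADAR, OAS1, OAS3 and IFI16 differed by -0.16, -0.03, 0.10, 0.13 and 0.38, and IRF1, IRF3, IRF7 and IRF9 by 0.05, -0.23, 0.00 and -0.02. IFI16 was at 6.93, 7.25 and 7.42 late with NANOG shRNA, against 6.79 to 6.86 with control virus. In the middle window IFITM1 (-1.16), IFITM3 (-0.75) and TAP1 (-0.48) were called, where 3.94% of all genes were, and in the early window 0 in limma (1 with an unadjusted p under 0.05), where 0.00743% were. Over the week within the arm IFI16 and ISG15 rose and TRIM25, PARP9 and PSMB8 fell, where 10.9% of all genes changed, and against the control change PSMB8 alone was called (-0.97), where 1.11% of all genes were.

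Direct comparison of knockdowns left the control arrays out of the difference. Between SOX2 and OCT4 shRNA in H1, 22 members were higher and 2 (IFI16 and TRIM5) lower with SOX2 shRNA late in the week, where 23.5% of all genes were higher and 23.7% lower. IFIT1, ISG15 and IFI6 differed by 2.54, 1.96 and 1.96, and TRIM22 by a fitted 2.62, with 1 of 4 late OCT4 shRNA arrays above background. Of sensors and enzymes, EIF2AK2 and ADAR were higher with SOX2 shRNA by 0.50 and 0.33, and DHX58 was called with no fold given, since it was below background on all late OCT4 shRNA arrays and at it with SOX2 shRNA, where 2 of 35 alternatives lost the EIF2AK2 call and 8 the ADAR call. Between SOX2 and NANOG shRNA 6 members were higher with SOX2 shRNA and 0 lower, where 18.1% of all genes were called. They were IFIT1 (2.60), IFITM1 (1.01), IFITM3 (0.59) and MX1 (0.54), IFIT3, at least 1.24-fold higher with SOX2 shRNA, and IFIT2, with a fitted 1.52 where 1 of 3 late NANOG shRNA arrays was above background.

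Between the early and late windows of the control arm 0 of 40 members were called in limma (8 with an unadjusted p under 0.05), where 0.535% of all genes were. ISG15 nevertheless spanned 9.28 to 10.51, IFITM1 11.34 to 12.25 and B2M 10.11 to 11.16, each lowest on day 0. BST2 spanned 8.98 to 9.99 and was highest on day 0. With every probe tested singly, the second probes of B2M (0.63, adjusted p = 0.0497) and PSMB9 (0.53, adjusted p = 0.0268 in limma) were called higher late than early.

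In H9 cells with OCT4 shRNA 7 members were higher and 4 lower late than early, where 13.9% and 13.1% of all genes tested rose and fell. BST2 was at 10.08, 10.43, 10.58, 10.71, 11.20, 11.22, 11.15 and 11.16 from day 0 to day 7, and every late array was above every early one. It rose by 0.92 (SE 0.25, adjusted p = 0.00492 in limma). IFI16 rose by 0.87 (adjusted p = 0.00163), B2M by 0.81 (adjusted p = 0.00203), IFITM1 by 0.70 (adjusted p = 0.0163) and ISG15 by 0.69 (adjusted p = 0.0209 in limma). IRF9 rose by 0.41. XAF1 was called higher on 1 of its 2 passing probes, by 0.45 (adjusted p = 0.0208), while the other gave -0.06 (adjusted p = 0.757 over all probes in limma). IRF1 fell by 0.46. TRIM5 was called lower on 1 of its 3 passing probes, by -0.85, and the others gave -0.35 (adjusted p = 0.119) and -0.23 (adjusted p = 0.216 over all probes in limma). IFI6 was not called on its brighter probe (0.36) and was called lower on the other (-0.46, adjusted p = 0.00385 over all probes in limma). USP18, which removes ISG15 from proteins, was at least 1.34-fold lower late than early. DDX58 was called lower (adjusted p = 0.00324 in limma) by a fitted -0.44, where 1 of 4 late arrays was above background, so its size is limited by the background level. Only the DDX58 call held under every alternative run. The USP18 and TRIM5 calls were lost only with the H9 rows as deposited, an order in which rows after the break hold other probes. Without the day 0 arrays fewer members were called. Without a control arm in H9, change with time in culture and change with OCT4 shRNA cannot be told apart.

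DDX58 was at 6.94, 7.04, 6.55, 6.71, 6.52, 6.63, 6.57 and 6.47 in H9 cells from day 0 to day 7, against 6.36, 6.37, 6.54, 6.51, 6.43, 6.59, 6.58 and 6.63 in H1 cells with OCT4 shRNA. The H9 values were higher than the H1 values on days 0 and 1, and the late ranges overlapped. EIF2AK2 in H9 cells was at 10.32, 9.95, 9.71, 9.69, 9.99, 9.43, 9.96 and 10.02 and was not called (-0.28, adjusted p = 0.28 in limma). DHX58, ADAR, OAS1, OAS3, IRF3 and IRF7 differed late from early by -0.24, -0.22, -0.15, -0.14, -0.24 and 0.22 without a call. MX2, a relative of MX1 that acts on retroviruses, was at 7.46 to 8.01 on the 8 H9 arrays and at 6.15 to 6.66 on the 31 H1 arrays, near background.

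The difference between the lines in change over the week was itself tested, a comparison added after the data were seen. It was called for 18 members, with 14 changes higher and 4 lower in H9 than in H1, where 14.1% and 14.4% of all genes were. Among members above background in all 4 windows were BST2 (2.61, SE 0.35, adjusted p = 1.37e-06 in limma), IFITM1 (2.24) and IFI6 (1.80). TRIM22, with 1 of 4 late H1 arrays above background, and PSMB8, with 0 of 4, were called as well (fitted 2.02 and 1.74), and the size of both is limited by the background level. The second probe of IFI6 did not follow (0.11, adjusted p = 0.688 over all probes in limma), nor did that of XAF1 (-0.14 against 0.79 on the representing probe), and 2 of the 3 further PSMB8 probes were called (1.1 each). BST2 rose by 0.92 in H9 and fell by 1.68 in H1. PSMB8 was at 8.01, 8.19, 8.25 and 7.68 on days 4 to 7 in H9 cells and at 6.57, 6.38, 5.97 and 6.41 in H1 cells. TRIM22 in H9 was at 8.21, 8.17, 7.40 and 7.10 on days 4 to 7, so that its last 2 values were the lowest of the arm. The changes of IFI16 (-1.07) and TRIM5 (-0.76) were lower in H9 than in H1, and the further TRIM5 probes gave -0.39 and -0.19 without a call. USP18 and DDX58 were called lower too, but USP18 was below background on all early and late H1 arrays and all late H9 arrays, and DDX58 on both early H1 arrays, so no size is given for them.

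**Figure D4:**
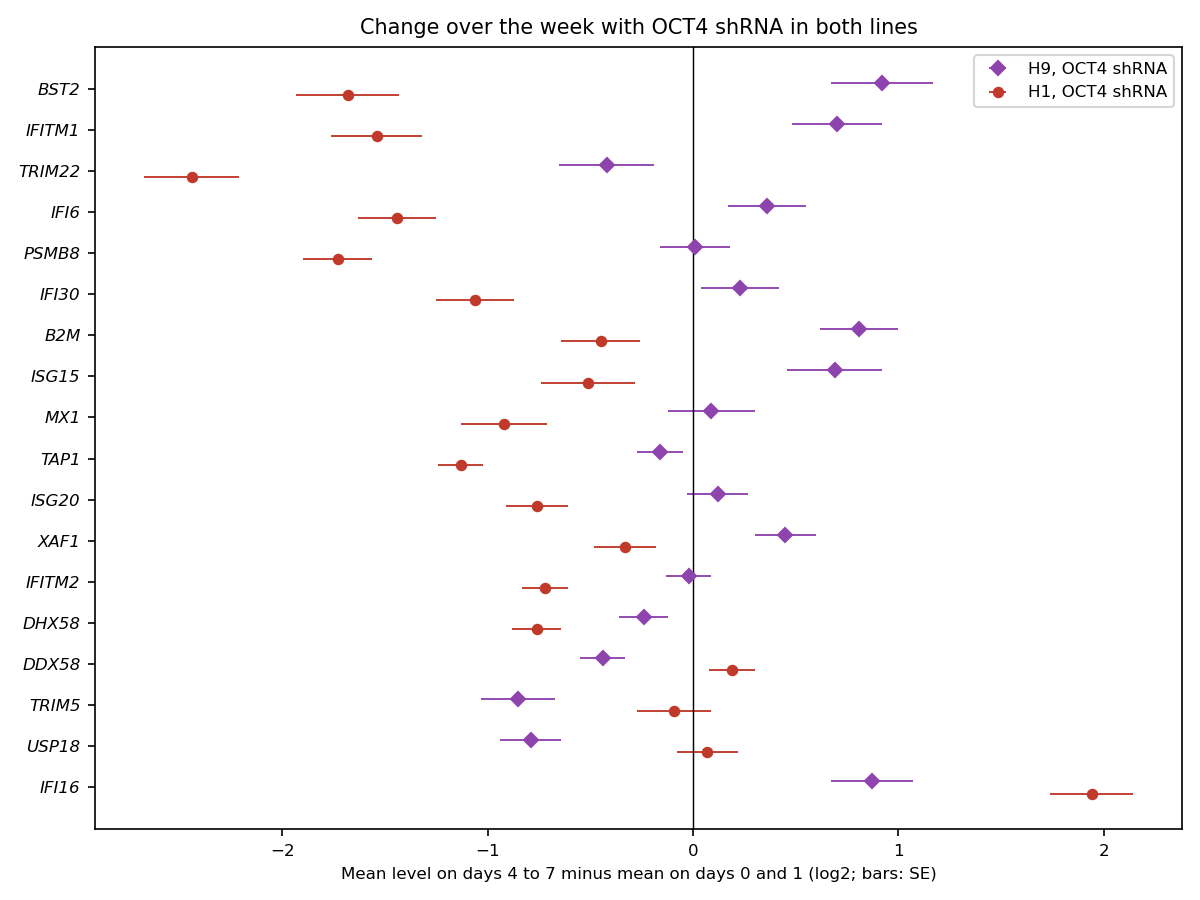
Mean level on days 4 to 7 minus mean on days 0 and 1 (log2, horizontal axis; bars are standard errors) for the 18 members whose changes differed between the lines, in H9 cells (diamonds) and H1 cells (circles) with OCT4 shRNA. BST2 lies at 0.92 in H9 and at -1.68 in H1, and both lines lie on the same side of 0 for IFI16, TRIM22, TAP1, IFITM2, DHX58 and TRIM5.

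Markers of other cell types were compared in the same arms, and they moved in some arms and lists and not in others. All 8 measured trophoblast and amnion markers were higher late after OCT4 shRNA in H1, and their summed intensity was 26399 to 38916 with OCT4 shRNA against 684 to 768 with control virus. In H9 cells with OCT4 shRNA the sum was 612 to 724 late and 639 to 677 early, with 7 of 8 below background on all late arrays. The sum was 767 to 1033 with NANOG shRNA and 679 to 2272 with SOX2 shRNA. Of 8 fibroblast markers 6 were higher and 1 lower after OCT4 shRNA in H1, with late sums of 5974 to 27503 with OCT4 shRNA, 3854 to 4198 with NANOG shRNA and 7515 to 9195 with SOX2 shRNA, against 5381 to 7813 with control virus. In H9 cells the fibroblast sum was 3438 to 4280 late and 6839 to 7534 early. The sum of 5 endothelial markers was 430 to 569 late with OCT4 shRNA in H1, 886 to 1558 with NANOG shRNA and 804 to 839 with SOX2 shRNA, against 648 to 768 with control virus, and in H9 cells it was 702 to 839 late and 630 to 774 early. Of 5 tested immune cell markers 0 were called in any late contrast against control in limma (0 with an unadjusted p under 0.05), with sums of 956 to 1058 with OCT4 shRNA and 981 to 1142 with control virus. The summed embryonic stem cell markers were late at 8500 to 22792 with OCT4 shRNA in H1, 28773 to 35286 with NANOG shRNA and 32497 to 35534 with SOX2 shRNA, against 41991 to 47101 with control virus, and all of these arms lay below the control range early as well. In H9 cells the sum was 29381 to 35185 late and 36488 to 38274 early. The part of these cell types in the member results was not tested.

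Other genes of the pathway were counted from lists that are not members. Over all genes, 3.55% were higher and 4.7% lower after SOX2 shRNA, 23.8% and 24.3% after OCT4 shRNA in H1, and 7.84% and 7.54% after NANOG shRNA. Of 12 tested receptor and JAK-STAT genes, 2 were higher and 1 lower after SOX2 shRNA, 5 and 4 after OCT4 shRNA in H1, and 1 and 1 after NANOG shRNA. SOCS1, which dampens JAK signalling, was lower after OCT4 and NANOG shRNA (-1.47 and -1.04), and STAT3, a factor that signals for other cytokines, was lower after OCT4 shRNA (-1.08). Of 10 tested sensing adaptors and kinases, 1 (DICER1, 0.35) was higher after SOX2 shRNA, 4 were higher and 1 lower after OCT4 shRNA, and 1 was higher after NANOG shRNA. TICAM1, the adaptor of TLR3, was higher by 0.91 after OCT4 shRNA.

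Of 17 tested further induced genes, 2 were higher and 1 lower after SOX2 shRNA (3.55% and 4.7% of all genes), 3 and 7 after OCT4 shRNA in H1 (23.8% and 24.3%), and 1 and 3 after NANOG shRNA (7.84% and 7.54%). The genes named next are the largest rises and falls among calls in all the pathway lists together, not in this list alone. Of them, PIAS1, SOCS1, IFNGR1 and IFNAR1 belong to the receptor and JAK-STAT list, DICER1 to the sensing list and HLA-F to antigen presentation. After SOX2 shRNA PIAS1, an inhibitor of STAT proteins, was higher by 0.65 and HERC5, the enzyme that attaches ISG15, by 0.54, and TRIM38, below background on all late control arrays, was higher by a fitted 0.56, while HLA-F (-0.50), PARP12 (-0.49) and IFNGR1 (-0.45) were lower. After OCT4 shRNA EPSTI1 and LY6E were higher by 2.50 and 1.45, and LGALS3BP (-1.62), SOCS1 and PARP12 (a fitted -1.48, below background on all late OCT4 shRNA arrays) were lower. After NANOG shRNA LGALS3BP, IFNAR1 and DICER1 were higher by 0.64, 0.33 and 0.28, and SOCS1, HERC6 and HERC5 were lower by -1.04, -0.84 and -0.66. Of 10 further antigen presentation genes, 7 were lower after OCT4 shRNA, with PSME1, an activator of the proteasome, at -1.25, and 1 was lower after each of SOX2 shRNA (HLA-F) and NANOG shRNA (PSMB10).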

How the data were processed

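The authors deposited linear probe intensities. How they normalized them, and with which software, is not given in the sources used here. After normexp correction (offset 50) log2 was taken, and nothing else was rescaled. The background level, 145.4 intensity units (6.58 on the log2 scale), comes from 457 olfactory receptor probes, and a probe passed when above it on at least 4 arrays. A gene was represented by its brightest passing probe. In the H9 columns values sat 2 rows early from row 13055 of the other table's probe order. Mean H9 and H1 levels correlated at 0.224 after the break as deposited and at 0.990 once moved, and 30 probes around the break, HLA-B's among them, were left out. An "at least" fold sets the brighter mean against the higher of the level and the dim probe's own value. Of the value columns, 81 were not used, because their names match no sample or their scale is another.

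Each arm and window had its own mean in 1 linear model over 39 arrays, fitted in R 4.3.3 with limma 3.58.1 (lmFit, then eBayes), with p adjusted by Benjamini-Hochberg over all genes. The scripts were tested on simulated data, and the number of arrays limits the precision. The members and lists were chosen with earlier results of these data known. Named members are all tested sensors, enzymes and IRF factors and up to 8 called members per late contrast, and others are named after their values were seen. In the labels a sample's number stands for its day, which pairs the arms by day. Of 36 late same-day correlations of deviations 18 were above 0.1 (median 0.105, range -0.14 to 0.37), and the day as a block was an alternative. Promoter sequences are RefSeq's, GRCh38.p14.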

Additional observations from a re-analysis of the deposited data

Results flagged for a closer look

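Within the late windows of 4 arrays, 160 groups were examined for an array far from the others, and 10 were found, where chance alone gives about 1 in 20. In H9 cells with OCT4 shRNA, EIF2AK2 was at 9.43 on day 5, against 9.96 to 10.02 on the other late days, OAS3 at 6.58 on day 6, against 6.21 to 6.25, and USP18 at 6.49 on day 7, against 6.08 to 6.15. In H1 cells with OCT4 shRNA, IRF1 was at 6.38 on day 7, against 6.46 to 6.47. In H1 cells with SOX2 shRNA, USP18 was at 6.93 on day 6, against 6.32 to 6.41. In H1 cells with control virus, IRF7 was at 7.7 on day 4, against 7.38 to 7.43, and PSMB8 at 8.55 on day 5, against 8.27 to 8.31. IFITM1 in control cells was at 11.97 on day 6, against 12.22 to 12.25, and on day 7 IFIT3 was at 6.57, against 6.24 to 6.29, and TRIM22 at 8.81, against 9.21 to 9.27.

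The change over the week with OCT4 shRNA differed between H9 and H1 for 18 members, by a test of the difference itself in limma. The change was higher in H9 for BST2 (2.61), IFITM1 (2.24), TRIM22 (2.02), IFI6 (1.80), PSMB8 (1.74), IFI30 (1.29), B2M (1.26), ISG15 (1.20), MX1 (1.01), TAP1 (0.97), ISG20 (0.88), XAF1 (0.79), IFITM2 (0.70) and DHX58 (0.52). It was lower in H9 for IFI16 (-1.07), USP18 (-0.87), TRIM5 (-0.76) and DDX58 (-0.63). These are fitted values, and their size and order are limited by the background level for PSMB8, IFI30, MX1 and DHX58, below background on all late H1 arrays, for TRIM22, with 1 of 4 of them above it, for USP18, below it on all early and late H1 arrays and all late H9 arrays, and for DDX58, below it on both early H1 arrays. Further passing probes of IFI6, XAF1 and TRIM5 were not called, and 1 of the 3 further PSMB8 probes was not. DHX58 was also below background on all early and late H9 arrays. Late POU5F1 was 9.33 in H9 and 6.79 in H1, and the part of this difference in the member values was not tested.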

How the results depend on the processing

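Each result was recomputed under up to 36 alternatives, of which 23 leave out arrays. Of 20 late OCT4 shRNA calls in H1, 16 held under all, as did 3 of 10 after NANOG shRNA, 3 of 7 after SOX2 shRNA (IFIT1, IFIT2 and TAP1), 1 of 11 in H9 and 10 of 18 in the comparison of the lines. The misplaced H9 rows as deposited are among the alternatives, and the H9 calls of USP18 and TRIM5 were lost under that alternative alone. The day as a replicate block, the paired fit, gave 3 members called in the control arm against 0, and 3 for the NANOG shRNA change against the control change, where the fit without it gave 1; it moved no other count by over 1.5 times. Array weights gave 17 late NANOG shRNA calls against 10, 5 against 3 in its middle window, 2 against 0 early after SOX2 shRNA, 11 against 6 for the SOX2 shRNA change, 4 against 0 in control, 4 against 1 for the NANOG shRNA change and 1 against 0 for the SOX2 shRNA change against control, and 19 against 6 between SOX2 and NANOG shRNA. With only the arms compared these counts were 2 (SOX2 shRNA early), 12 (its change), 5 (control), 3 and 1 (NANOG and SOX2 shRNA changes against control) and 13 (SOX2 against NANOG shRNA). In control, 1 member was called with no background correction, with at least 8 arrays above the level, with the mean of probes, without the H9 columns and with a trend, and 2 when probes were tested singly. The mean of probes gave 3 for the NANOG shRNA change against 5, and an offset of 16 or no filter gave 0 for that change against control. The cause of these shifts was not tested.

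Leaving out arrays gave 5 to 10 late calls after NANOG shRNA, 4 to 7 after SOX2 shRNA and 18 to 21 after OCT4 shRNA. The middle windows gave 0 to 3 for OCT4 and NANOG shRNA and 0 to 4 for SOX2 shRNA, where 1 array a group remained and was assumed to vary like the others. The early SOX2 shRNA window gave 0 to 1. Changes over the week gave 0 to 5 for NANOG shRNA, 0 to 7 for SOX2 shRNA, 5 to 12 for H9 and 0 to 2 for control, and 9 to 16 (OCT4 shRNA) and 0 to 1 (NANOG shRNA) against the control change. With the H9 rows as deposited, 3 values reversed: IRF1 to 0.19 and XAF1 to -0.0701 in the H9 change and ISG20 to -0.44 between the lines, since those rows then hold other probes. Probes near background, DDX58, IFIH1, OAS3, USP18 and IFIT3 among them, limit what small differences could be seen, as does the number of arrays.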
